A study of Mus musculus with 8 samples.

Results

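The genes described here encode the nuclear subunits of the 5 oxidative phosphorylation complexes. They were chosen by symbol alone, as the rows of the deposited table of protein-coding genes whose names belong to the Ndufa, Ndufb, Ndufc, Ndufs and Ndufv series, the Sdha to Sdhd genes, the Uqcr genes, the Cox4 to Cox8 genes and the Atp5 genes. The rule found 83 of the 22053 rows, of which 37 belong to complex I, 4 to complex II, 8 to complex III, 17 to complex IV and 17 to complex V. The rule also takes genes that carry a subunit name without being a fixed part of an assembled complex, such as Cox7a2l, Atp5s and Atp5sl.

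Oxidative phosphorylation is the last stage of respiration in the inner mitochondrial membrane. Complexes I and II pass electrons from NADH and succinate to ubiquinone, complex III passes them on to cytochrome c, and complex IV hands them to oxygen, while complexes I, III and IV pump protons. Complex V, the ATP synthase, lets the protons flow back and makes ATP. Cartilage cells live in poorly supplied tissue and rely largely on glycolysis, and several complex IV subunits exist as a common form and a form restricted to muscle, lung, testis or low oxygen.

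RNA was sequenced in bulk from 8 libraries of wild-type (WT) mice at postnatal day 10. Cells of the spine gave 4 libraries, labelled candidate vSSC (vertebral skeletal stem cells), and cells of the femur and tibia gave the other 4, labelled lbSSC (the long bone counterpart). In each group replicates 1 and 2 were male and replicates 3 and 4 female, and all cells had been sorted for CD200 while lacking CD105, CD31, CD45, TER119, Thy and 6C3. The labels call the samples biological replicates without giving the number of animals behind each, and a p-value here compares samples, whose spread may be technical.

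Values are FPKM, fragment counts divided by transcript length and library size, which allows levels to be compared between genes of different length. Means are given ± SD with n = 4 libraries per group. A difference is the vSSC mean less the lbSSC mean of log2(FPKM + 1), given ± SE, and it understates the change of low genes. A gene was called when limma gave a Benjamini-Hochberg adjusted p under 0.05 over the 10729 genes that reached an FPKM of 1 in 4 or more libraries, and every adjusted p below comes from that test unless another fit is named. Library sums of FPKM ran from 460302 to 571869, and the number of fragments behind a value is not known. The sort genes were at low levels where the sort required it, since Ptprc (CD45), Pecam1 (CD31), Thy1 and Enpep (6C3) averaged 1.22 FPKM or less in both groups and Eng (CD105) 0.926 or less. Cd200 averaged 109 ± 22.5 in vSSC and 101 ± 28.1 in lbSSC, and of 5 cartilage genes Matn3 (1506 and 542 on average) and Hapln1 (1887 and 1004) were called higher in vSSC, while Col2a1 (10866 and 14146), Acan (442 and 477) and Sox9 (114 and 98.7) were not called.

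Most subunit transcripts had a small positive difference, and 18 of them were called higher in vSSC. Of the 83 genes, 79 passed the filter on low values, and 75 of these 79 (94.9%) had a difference above 0, against 58.6% of all genes tested. Their median difference was 0.36, against 0.08 over all genes, and 62 lay between 0.2 and 0.6. Called higher in vSSC were 18 subunits (22.8% of 79), against 14.3% of all genes, and 1 was called lower, against 9.17% of all genes. The 1 called lower, Cox8c, passed the filter through the lbSSC libraries alone, so it had to differ to be tested. Most of the subunits are short transcripts, and among other genes of their lengths the share called higher was 24.5% up to 600 bases, 27.4% from 600 to 1000, 20.8% from 1000 to 2000 and 13.4% from 2000 to 4000. The counts of subunits in the same bins are given with their lengths below. At an unadjusted limma p under 0.05, 48 subunits were higher in vSSC, against 24.3% of all genes. In 14 subunits every vSSC library lay above every lbSSC library, against 15.8% of all genes, and in 1, again Cox8c, every vSSC library lay below, against 9.99%. In bulk RNA, fewer cells of a type and less RNA per cell cannot be told apart.

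**Figure D1:**
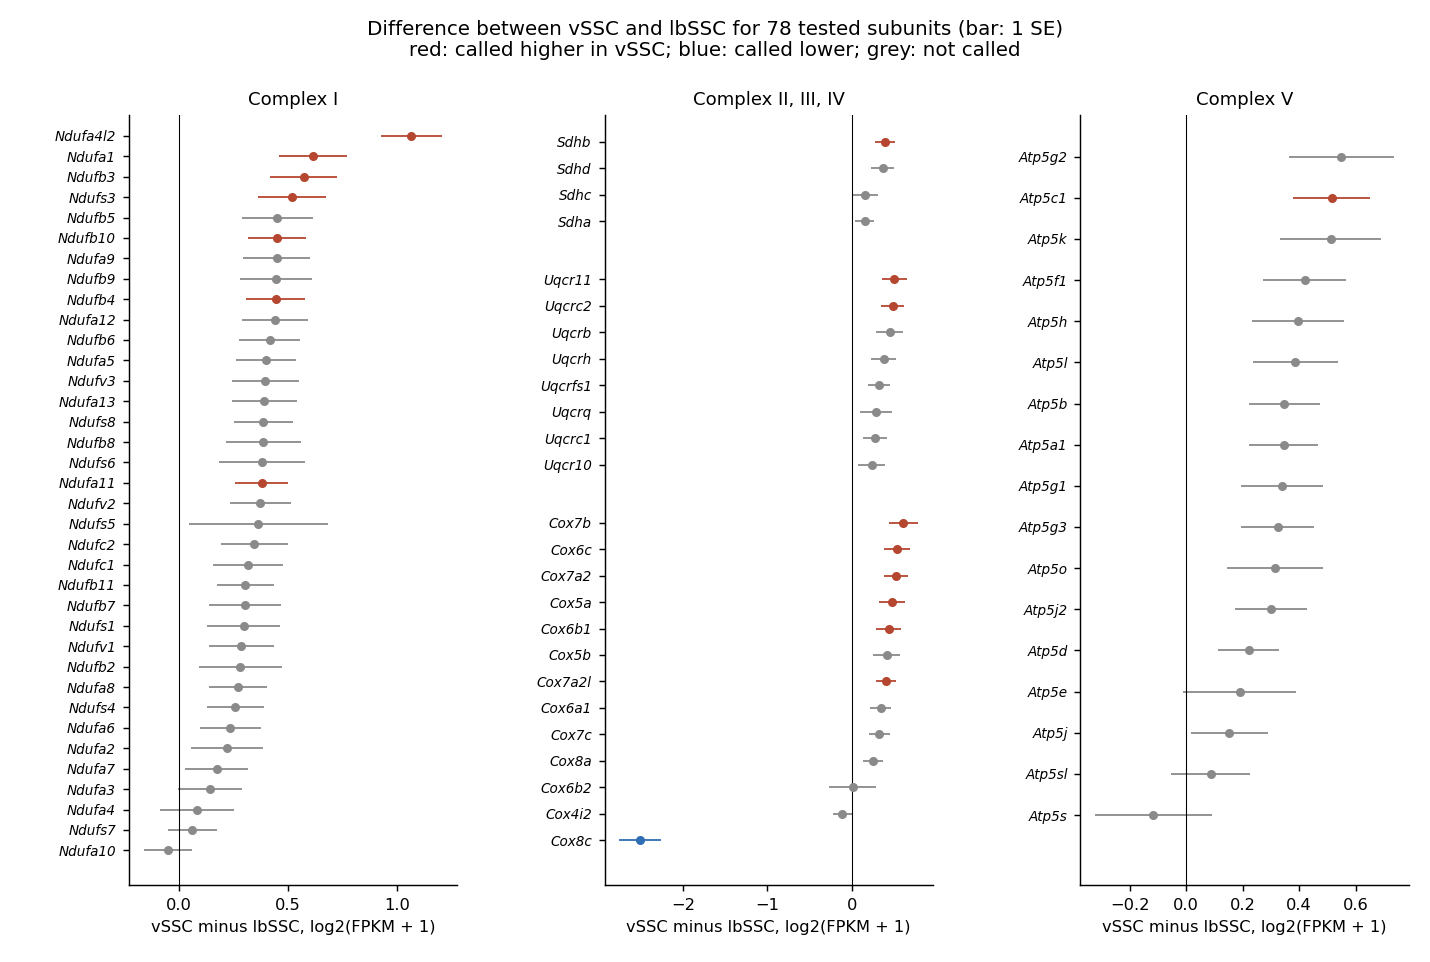
Difference between vSSC and lbSSC on the log2(FPKM + 1) scale for 78 of the 79 tested subunits, in 3 panels with separate axes, with bars of 1 SE. Most points lie between 0.2 and 0.6, Ndufa4l2 lies at 1.07 and Cox8c at -2.51.

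The libraries of a group were not alike in this measure. The summed FPKM of all 83 genes was 15119, 13341, 15058 and 11479 in vSSC replicates 1 to 4, and 12513, 11433, 9714 and 8970 in the lbSSC replicates. Thus 3 of 4 vSSC libraries lay above every lbSSC library, while vSSC replicate 4 lay below lbSSC replicate 1. The means were 13749 ± 1723 and 10658 ± 1611, or 2.5% ± 0.202 and 2.14% ± 0.202 of all FPKM in a library. The coefficient of variation between the 4 libraries had a median over the tested subunits of 14.5% in vSSC and 17.4% in lbSSC. The number of subunits called higher depended on each library but lbSSC replicate 2. With vSSC replicates 1, 2, 3 and 4 left out in turn the number was 1, 7, 2 and 43. With lbSSC replicates 1, 2, 3 and 4 left out it was 35, 19, 3 and 3. The share of all genes called in these fits is not given here. These counts thus do not show whether the subunits changed more than other genes.

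All 5 complexes took a similar course across the libraries. As the median deviation from each gene's mean over the 8 libraries, on the log2(FPKM + 1) scale, complex I lay at 0.34, 0.12, 0.35 and -0.053 in vSSC replicates 1 to 4 and at 0.026, -0.053, -0.27 and -0.41 in the lbSSC replicates. Complex V followed with 0.30, 0.16, 0.30 and -0.081, and then 0.088, -0.068, -0.26 and -0.38. The other 3 complexes had the same high libraries, vSSC replicates 1 and 3, and the same lowest library, lbSSC replicate 4. Transcripts of the cytosolic ribosome, the protein-synthesis machinery outside mitochondria, took nearly the same course, with 0.32, 0.11, 0.37 and -0.022 in vSSC and -0.00024, -0.054, -0.33 and -0.40 in lbSSC. All tested genes of up to 600 bases, 190 in number, took a similar course. They lay at 0.27, 0.15, 0.33 and -0.053 in vSSC and at 0.070, -0.051, -0.30 and -0.35 in lbSSC. The course is thus not particular to subunits and ribosomal proteins. Genes above 4000 bases ran from -0.16 in vSSC replicate 3 to 0.10 in lbSSC replicate 3. The median over all tested genes stayed between -0.13 and 0.09. Acan, a matrix gene, was lowest in vSSC replicates 1 and 3, at 291 and 262 FPKM, against 544 and 673 in vSSC replicates 2 and 4 and 393 to 605 in lbSSC, while Hapln1, which links that matrix, was highest there, at 1974 and 2087 FPKM, against 1696 and 1791 and then 888 to 1132. The part of these library differences in the subunit result was not tested.

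**Figure D2:**
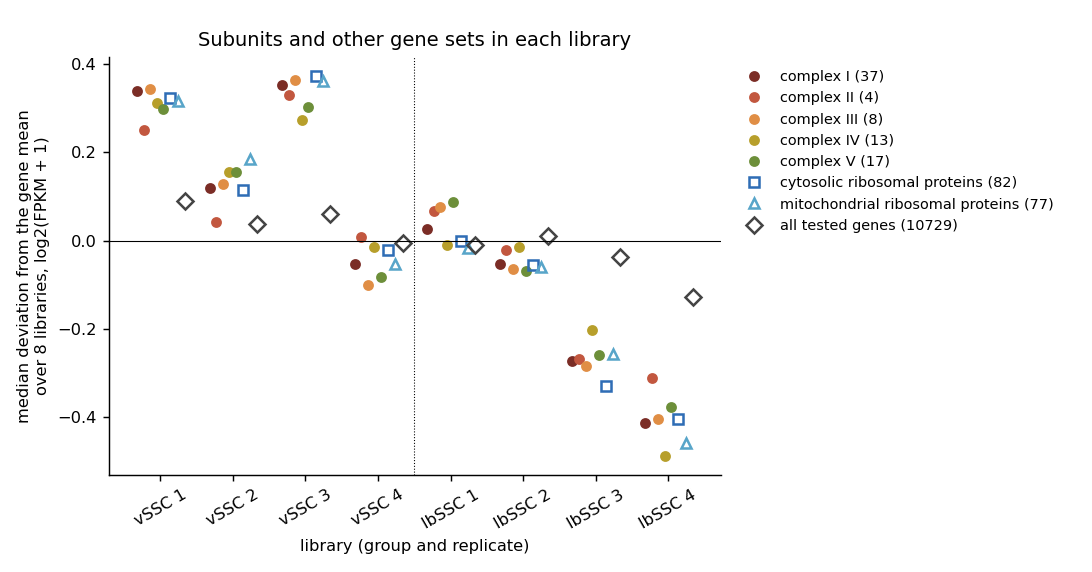
Median deviation from the gene mean over the 8 libraries, on the log2(FPKM + 1) scale, for the tested subunits of each complex, 2 sets of ribosomal protein genes and all tested genes, with the number of genes in brackets. All sets are highest in vSSC replicates 1 and 3 and lowest in lbSSC replicate 4, and the set of all tested genes spans the smallest range, from -0.13 to 0.09.

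Promoter sequence was one feature the choice of genes did not use, and 66 of the 83 genes matched a window in RefSeq (build GRCm38.p6) that runs from 250 bases before to 50 bases after the gene start. The words searched, on both strands, were GCGCANGCG (the core bound by NRF1, a regulator of nuclear genes for mitochondria), CCGGAAGT (bound by ETS factors such as GABP), AAGATGGC (bound by YY1), TCAAGGTCA (bound by the estrogen-related receptors) and TACGTG (bound by hypoxia-inducible factors). The NRF1 word was in 20 of 66 windows (30.3%), against 16.3% of tested genes and 7.03% of all 27025 genes with such a window. The YY1 word was in 9 (13.6%), against 5.67% of tested genes, the ETS word in 5 (7.58%), against 9.63%, and the receptor word in 2 (3.03%), against 0.289%. The hypoxia word was in 1 (1.52%), against 4.55%. Ndufa4l2, Cox4i2 and Cox8c are among the 17 genes with no matched window and were not searched. The NRF1 word was spread unevenly, in 7 of 13 windows of complex V, 8 of 32 of complex I, 2 of 3 of complex II, 2 of 5 of complex III and 1 of 13 of complex IV. Most of the windows that hold a word overlap annotated exons, and the 150 bases before the start are shown for 5 genes where few or none of them are exonic, as examples of the NRF1, ETS and receptor words in complexes I, III, IV and V. Capitals mark the match, which is a match of letters and not a measured binding site.
Ndufs5 (chr4:123718187-123718336, minus strand): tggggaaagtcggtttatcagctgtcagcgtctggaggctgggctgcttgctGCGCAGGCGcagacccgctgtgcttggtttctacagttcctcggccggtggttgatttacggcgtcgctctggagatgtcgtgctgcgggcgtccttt
Uqcrh (chr4:116075071-116075220, minus strand): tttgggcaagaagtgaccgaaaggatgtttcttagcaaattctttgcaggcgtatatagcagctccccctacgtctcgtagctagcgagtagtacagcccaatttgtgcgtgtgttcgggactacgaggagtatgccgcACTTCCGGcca
Uqcr11 (chr10:80406822-80406971, minus strand): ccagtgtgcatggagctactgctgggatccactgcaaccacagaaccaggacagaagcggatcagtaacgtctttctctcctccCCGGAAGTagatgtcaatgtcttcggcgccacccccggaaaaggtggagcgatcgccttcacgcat
Cox6a1 (chr5:115348959-115349108, minus strand): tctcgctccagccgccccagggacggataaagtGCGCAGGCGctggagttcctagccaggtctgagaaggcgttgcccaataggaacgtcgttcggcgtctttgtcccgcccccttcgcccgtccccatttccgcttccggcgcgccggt
Atp5g3 (chr2:73911327-73911476, minus strand): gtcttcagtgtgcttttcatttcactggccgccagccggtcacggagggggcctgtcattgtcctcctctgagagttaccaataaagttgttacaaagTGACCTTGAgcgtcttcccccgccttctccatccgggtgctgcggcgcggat
Of these 5 genes only Uqcr11 was called higher in vSSC.

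Complex I, the NADH dehydrogenase, had 8 of 37 subunits (21.6%) called higher in vSSC, against 14.3% of all genes, and a median difference of 0.38. Among the core subunits, which form the arm that takes electrons from NADH, Ndufs3 was called at 0.52 ± 0.16 (adjusted p = 0.0345). Of the 28 accessory subunits, which surround that core, 5 were called and 27 had a difference above 0. The exception was Ndufa10, at 19.1 ± 1.61 and 19.8 ± 1.50 FPKM in vSSC and lbSSC, with a difference of -0.05 ± 0.11.

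The largest difference among the subunits higher in vSSC was that of Ndufa4l2, a paralogue of Ndufa4 that is known as a target of hypoxia signalling. Ndufa4 itself carries a complex I name but is a subunit of complex IV. Ndufa4l2 (chr10:127514939-127517152, plus strand, GRCm38) had 652, 615, 501 and 445 FPKM in vSSC replicates 1 to 4 and 262, 291, 273 and 221 in the lbSSC replicates. The groups did not overlap, and the lowest vSSC library stood well above the highest lbSSC library. The difference was 1.07 ± 0.14 (adjusted p = 0.000343), from means of 553 ± 96.8 and 262 ± 29.7. Ndufa4l2 was called higher under all 24 alternative settings, with adjusted p between 9.04e-05 and 0.0262. It was also the subunit with the highest level in complex I at both sites. Its end overlaps that of Shmt2, a serine metabolism gene on the other strand that was also called higher (56.3 ± 5.21 and 36.8 ± 4.04 FPKM, 0.60 ± 0.11, adjusted p = 0.00343), and the library kit does not mark the strand, so reads in the shared bases cannot be assigned. Ndufa4 had 207, 212, 274 and 169 FPKM in vSSC and 272, 186, 176 and 180 in lbSSC, which overlap, and a difference of 0.08 ± 0.17 (adjusted p = 0.750). Ndufa4l2 stood at 263% ± 57.7 of the Ndufa4 level in vSSC and at 133% ± 29.0 in lbSSC.

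Ndufa1, a small membrane subunit encoded on the X chromosome, had 336, 270, 300 and 211 FPKM in vSSC and 198, 209, 173 and 146 in lbSSC. Every vSSC library exceeded every lbSSC library, though vSSC replicate 4 did so by little. Its difference was 0.61 ± 0.16 (adjusted p = 0.0170) and it was called higher under 21 of the 24 alternatives. Ndufb3, a subunit of the membrane arm, had 105, 82.4, 93.9 and 72.4 FPKM in vSSC and 54.6, 75.4, 60.2 and 47.4 in lbSSC, with vSSC replicate 4 below lbSSC replicate 2 (0.57 ± 0.15, adjusted p = 0.0218). Ndufb10, of the same arm, had 129, 98.0, 116 and 93.3 FPKM in vSSC and 90.1, 83.5, 76.3 and 67.3 in lbSSC, without overlap (0.45 ± 0.13, adjusted p = 0.0298). The other 2 accessory subunits called were Ndufb4 at 0.44 ± 0.14 and Ndufa11 at 0.38 ± 0.12.

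Complex II, the succinate dehydrogenase, is the one complex whose subunits are all nuclear, and it had the smallest median difference, 0.26. Sdhb, the iron-sulphur subunit, had 64.6, 63.8, 72.8 and 60.2 FPKM in vSSC and 60.1, 49.6, 43.6 and 45.9 in lbSSC. The groups did not overlap, though lbSSC replicate 1 nearly reached vSSC replicate 4, and Sdhb was called higher (0.39 ± 0.12, adjusted p = 0.0350). Sdha, the flavoprotein subunit that oxidises succinate, had 48.2, 42.5, 43.7 and 44.6 FPKM in vSSC and 40.9, 47.4, 37.7 and 35.2 in lbSSC, which overlap (0.15 ± 0.11, adjusted p = 0.333). The membrane anchors Sdhc and Sdhd were not called either. Sdhc had 144, 102, 147 and 103 FPKM in vSSC and 121, 119, 108 and 92.0 in lbSSC (0.16 ± 0.15, adjusted p = 0.463). Sdhd had 190, 152, 179 and 138 FPKM and then 151, 135, 109 and 115 (0.37 ± 0.14, adjusted p = 0.0725). In both anchors vSSC replicates 1 and 3 were the highest libraries.

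Complex III, the cytochrome bc1 complex, had 2 of 8 subunits called higher, against 14.3% of all genes, a median difference of 0.35 and no subunit below 0, against 58.6% of all genes above 0. Uqcrc2, a core protein, had 144, 132, 147 and 105 FPKM in vSSC and 100, 107, 93.2 and 75.5 in lbSSC (0.48 ± 0.14, adjusted p = 0.0284). Only vSSC replicate 4 lay within the lbSSC range. Uqcr11, a small subunit, had 244, 222, 266 and 209 FPKM in vSSC and 208, 186, 135 and 142 in lbSSC (0.50 ± 0.15, adjusted p = 0.0305), where vSSC replicate 4 and lbSSC replicate 1 almost met. Uqcrh, the hinge protein that helps cytochrome c dock and the subunit of complex III with the highest level, had 605, 487, 583 and 391 FPKM in vSSC and 427, 441, 376 and 333 in lbSSC. It was not called (0.38 ± 0.15, adjusted p = 0.0925).

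Complex IV, the cytochrome c oxidase, had 6 of 13 tested subunits called higher, against 14.3% of all genes, 1 called lower, against 9.17%, and a median difference of 0.40. The 1 called lower, Cox8c, passed the filter through the lbSSC libraries alone. Of the 9 common isoforms 5 were called higher, and the sixth called gene was Cox7a2l, a supercomplex factor. Cox7a2, a common isoform, had 292, 266, 256 and 210 FPKM in vSSC and 211, 199, 160 and 145 in lbSSC, with vSSC replicate 4 just under lbSSC replicate 1 (0.52 ± 0.14, adjusted p = 0.0236). Cox7b, encoded on the X chromosome, had 233, 185, 233 and 151 FPKM in vSSC and 153, 152, 111 and 106 in lbSSC (0.61 ± 0.17, adjusted p = 0.0253). Again only vSSC replicate 4 overlapped the lbSSC libraries. Cox6c, a small membrane subunit, had 509, 463, 537 and 372 FPKM in vSSC and 359, 392, 295 and 256 in lbSSC (0.53 ± 0.16, adjusted p = 0.0308). Cox7a2l, which joins complexes III and IV into supercomplexes, had 176, 147, 176 and 147 FPKM in vSSC and 129, 139, 119 and 103 in lbSSC, without overlap (0.40 ± 0.12, adjusted p = 0.0320). The last 2 calls were close to the threshold. Cox5a, an early assembling subunit, stood at 0.48 ± 0.16 (adjusted p = 0.0454). Cox6b1, the subunit on the cytochrome c side, had 344, 315, 400 and 284 FPKM in vSSC and 273, 282, 249 and 192 in lbSSC (0.44 ± 0.15, adjusted p = 0.0491). With each library's trend on transcript length removed, 3 of the 13 were called higher, against 13.2% of all genes, and 2 lower, against 10.4%.

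Among the complex IV genes with the highest levels, Cox6a1, the common form of its pair, had 472, 477, 518 and 462 FPKM in vSSC and 425, 434, 372 and 305 in lbSSC. The groups did not overlap, yet it was not called (0.34 ± 0.12, adjusted p = 0.0674). Cox8a, likewise the common form, had 517, 446, 513 and 442 FPKM in vSSC and 425, 455, 390 and 344 in lbSSC, which overlap (0.25 ± 0.12, adjusted p = 0.134).

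Of the 7 isoforms of complex IV that are restricted to certain tissues, 3 passed the filter, and their differences were -2.51, -0.11 and 0.0079. Cox8c, a form known from testis (chr12:102899306-102900534, plus strand, GRCm38), was listed at 0 in vSSC replicates 1, 2 and 3 and at 0.599 FPKM in replicate 4, against 3.06, 7.72, 5.60 and 6.16 in lbSSC. It was the one subunit called lower in vSSC (-2.51 ± 0.25, adjusted p = 4.77e-05). It passed the filter through the lbSSC libraries alone, so it had to differ to be tested, and its adjusted p is no support for the difference. Its level in lbSSC was 1.41% ± 0.483 of that of Cox8a. Of the genes within 50000 bases of Cox8c, Btbd7 did not share the difference (0.07 ± 0.14, adjusted p = 0.721). Unc79 averaged under 0.1 FPKM in both groups and was not tested, so it cannot show whether the difference is shared.

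Cox4i2, the form of subunit 4 known from lung and from cells at low oxygen (chr2:152754173-152765037, plus strand, GRCm38), was abundant at both sites. It had 187, 181, 165 and 159 FPKM in vSSC and 211, 196, 174 and 168 in lbSSC, which overlap. As reported it was not called (-0.11 ± 0.11, adjusted p = 0.478). It was called lower in 5 of the 24 alternatives, each of which rescaled the libraries: quantile normalization (-0.31 ± 0.079, adjusted p = 0.0188), one sum per library (-0.26 ± 0.080, adjusted p = 0.0396), the trend on transcript length removed (-0.37 ± 0.079, adjusted p = 0.00723), that removal together with median-of-ratios scaling (-0.37, adjusted p = 0.00663), and each library centred on the mean of the subunits (-0.42 ± 0.088, adjusted p = 0.00700). Against Cox5a, a subunit of the same complex, Cox4i2 stood at 135%, 129%, 135% and 133% in vSSC and at 169%, 190%, 229% and 218% in lbSSC, so that the 4 ratios of one group did not overlap those of the other. Median-of-ratios scaling alone gave -0.20 and no call. The pair was chosen after the values were seen, and the ratio was not tested. Cox4i1, the common form of subunit 4, was not among the 83 genes found, so the balance between these forms could not be given.

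Of the other muscle and testis forms, Cox6b2 passed the filter at a low level and 4 did not pass it. Cox6b2, a testis form, had 4.72, 12.1, 16.9 and 12.1 FPKM in vSSC and 10.8, 9.65, 11.6 and 9.82 in lbSSC, so vSSC replicate 1 was the lowest and replicate 3 the highest of all 8 (0.0079 ± 0.28, adjusted p = 0.989). Cox6a2, Cox7a1 and Cox8b are forms of heart and skeletal muscle or brown fat, and Cox7b2 is a testis form. Cox7a1 had 3.20, 0.318, 0.83 and 0.316 FPKM in vSSC and 0.213, 0, 0 and 0.583 in lbSSC. Cox6a2 did not exceed 0.863 FPKM, Cox8b was listed at 0 in 6 libraries with a highest value of 1.28, and Cox7b2 did not exceed 0.267.

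**Figure D3:**
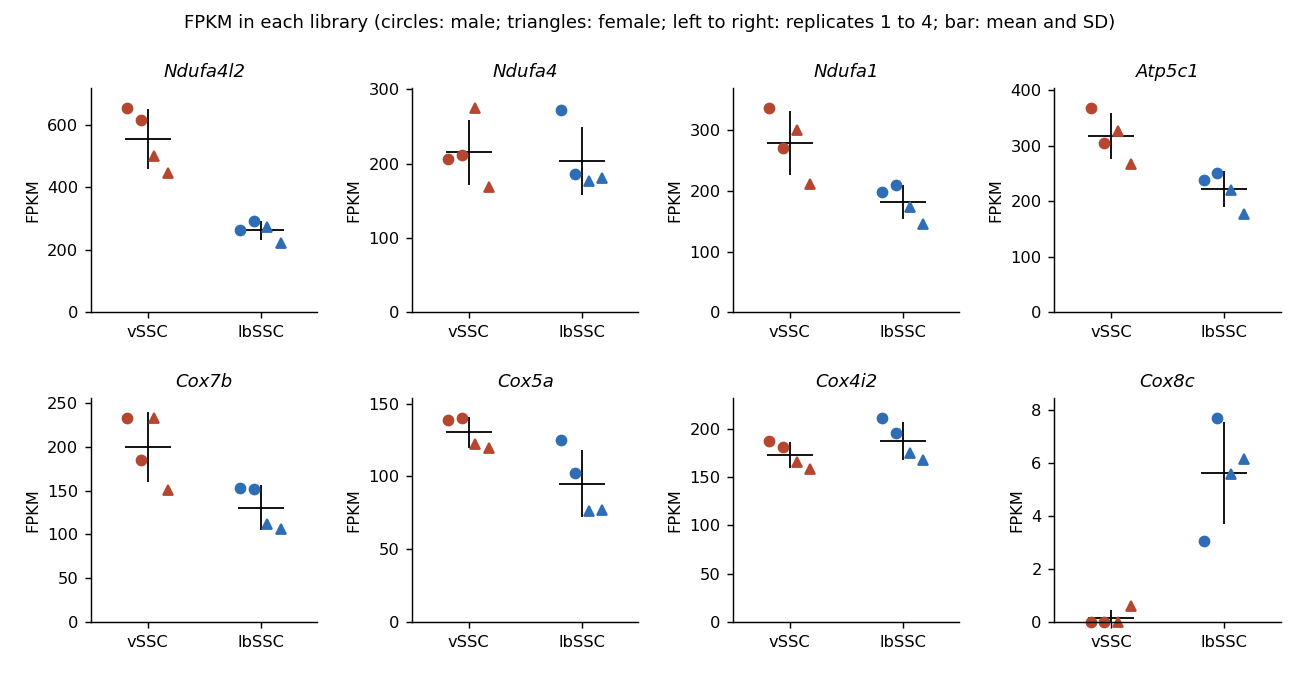
FPKM of 8 subunit genes in each library, with a circle for a male and a triangle for a female library and a black bar for the mean and SD of 4 libraries. Ndufa4l2, Ndufa1 and Atp5c1 do not overlap between groups, Ndufa4, Cox7b, Cox5a and Cox4i2 do, and Cox8c is at or near 0 in vSSC.

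Complex V, the ATP synthase, had 16 of 17 genes with a difference above 0 and a median of 0.34, and 1 (5.88%) called higher, against 14.3% of all genes. That was Atp5c1, the gamma subunit that turns inside the catalytic head. It had 368, 306, 326 and 268 FPKM in vSSC and 239, 251, 221 and 177 in lbSSC. The groups did not overlap, and Atp5c1 was called higher (0.51 ± 0.14, adjusted p = 0.0196), as in 18 of the 24 alternatives. Atp5b, the catalytic beta subunit and the gene of complex V with the highest level, had 524, 478, 505 and 425 FPKM in vSSC and 454, 404, 342 and 327 in lbSSC, which overlap through vSSC replicate 4 (0.35 ± 0.13, adjusted p = 0.0673).

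The ring of c subunits that the protons turn is encoded by 3 genes with the same mature protein, and none was called. Atp5g1 had 240, 183, 239 and 184 FPKM in vSSC and 211, 166, 145 and 147 in lbSSC (0.34 ± 0.15, adjusted p = 0.112). Atp5g2 had 138, 128, 148 and 82.6 FPKM and then 98.3, 88.1, 84.0 and 63.8 (0.55 ± 0.19, adjusted p = 0.0516). Atp5g3, the most abundant of them, had 430, 410, 447 and 342 FPKM and then 394, 328, 287 and 295 (0.32 ± 0.13, adjusted p = 0.0915). As a proportion of that gene, Atp5g1 stood at 51.9% ± 4.96 in vSSC and 51.1% ± 1.65 in lbSSC, and Atp5g2 at 30.2% ± 4.09 and 25.7% ± 3.24. The 4 genes of the peripheral stalk, which holds the head still, had a median of 0.35, and the 3 small membrane subunits tested had one of 0.39. The lowest value was that of Atp5s, a coupling factor that is not a lasting subunit (3.84 ± 1.41 and 4.08 ± 0.355 FPKM, -0.12 ± 0.21, adjusted p = 0.709).

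The medians of the 5 complexes ran from 0.26 to 0.40. Summed FPKM was 1.33 times as high in vSSC for complex I, 1.22 for complex II, 1.29 for complex III, 1.29 for complex IV and 1.26 for complex V. Some values cannot be tied to a single gene with certainty, because 20 of the 83 genes have a copy elsewhere in the genome that is at least 95% identical over at least 200 bases, a pseudogene in 19 of them. Among the called genes these are Ndufb3, Ndufs3, Ndufb4, Cox7b, Cox6c, Cox7a2l and Atp5c1. A further limit is that 36 of the 83 overlap another annotated gene.

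Transcript length moved with the difference over all genes. The tested subunits had a median length of 745 bases, against 2635 for all tested genes, and 97.5% of them were shorter than that overall median. Among the other tested genes the median difference was 0.34 up to 600 bases, 0.30 from 600 to 1000, 0.21 from 1000 to 2000, 0.06 from 2000 to 4000 and -0.10 above 4000. The subunits had medians of 0.35, 0.39, 0.39 and 0.29 in the first 4 of these bins, and none was above 4000 bases. Called higher were 4 of 27, 7 of 25, 7 of 21 and 0 of 6 subunits in these bins, against 24.5%, 27.4%, 20.8% and 13.4% of the other genes. Up to 600 bases the medians of subunits and other genes were thus nearly level, and in the longer bins the median of the subunits lay higher. The share of subunits called was smaller than that of other genes up to 600 and from 2000 to 4000 bases. It was similar from 600 to 1000 bases and larger from 1000 to 2000. Within the subunits the shorter 40 had a median difference of 0.38 with 8 called, and the longer 39 one of 0.34 with 10 called. With each library's trend on length removed, 9 of 79 subunits were called higher, a smaller share than the 13.2% of all genes. Called lower were 2, against 10.4%, and the median was 0.13, against 0.04 over all genes. The 9 were Ndufa4l2, Ndufa1, Ndufs3, Uqcrc2, Cox7a2, Cox7b, Cox6c, Atp5c1 and Atp5a1, the last an alpha subunit that was not called as reported (0.30, adjusted p = 0.0261).

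**Figure D4:**
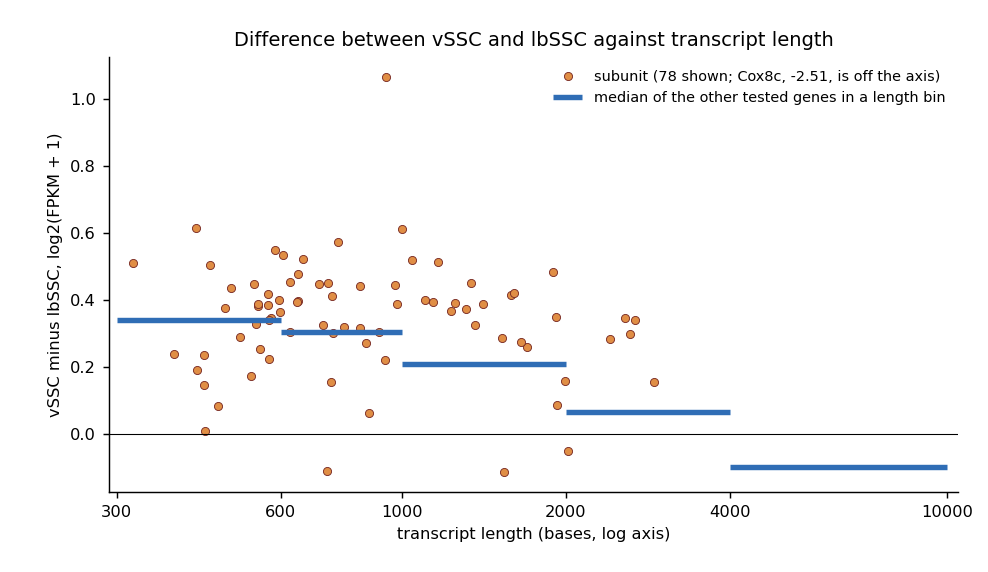
Difference between vSSC and lbSSC on the log2(FPKM + 1) scale against transcript length on a log axis, with a dot for each of 78 tested subunits and a bar for the median of the other tested genes in 5 bins of length. The bars fall from 0.34 to -0.10 while the medians of the subunits in the first 4 bins stay between 0.29 and 0.39.

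The scaling of the libraries also moved the result. Median-of-ratios scaling left 12 of 79 subunits higher, against 11.9% of all genes, with a median of 0.28. A single sum per library left 12 of 79 higher, against 9.34%, and 2 lower, against 12.7%, with a median of 0.22. Quantile normalization left 6 of 79 higher, a smaller share than the 10.2% of all genes, and 2 lower, against 10.4%, with a median of 0.15. The share of FPKM in cytosolic ribosomal proteins was 20.5% ± 1.50 in vSSC and 17.2% ± 1.46 in lbSSC, and with that share as a covariate 1 subunit was higher, Ndufa4l2 (0.84 ± 0.19, adjusted p = 0.0262), against 2.21% of all genes, and the median was -0.057. With sex as a covariate 32 were higher, against 15.9% of all genes. Without both vSSC replicates 1 and 3 Ndufa4l2 was again the 1 subunit called higher, against 4.69% of all genes. Another fit, added after the data were seen, centred each library on the mean of the subunits themselves. In it 3 of 79 subunits were called higher in vSSC, a share close to the 3.77% of all genes. The 3 were Ndufa4l2 at 0.76 ± 0.12, Ndufa1 at 0.31 ± 0.088 and Cox7b at 0.30 ± 0.091 (adjusted p of 0.000936, 0.0308 and 0.0377). In that fit Cox4i2 and Cox8c stood lower, against 15.6% of all genes.

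**Figure D5:**
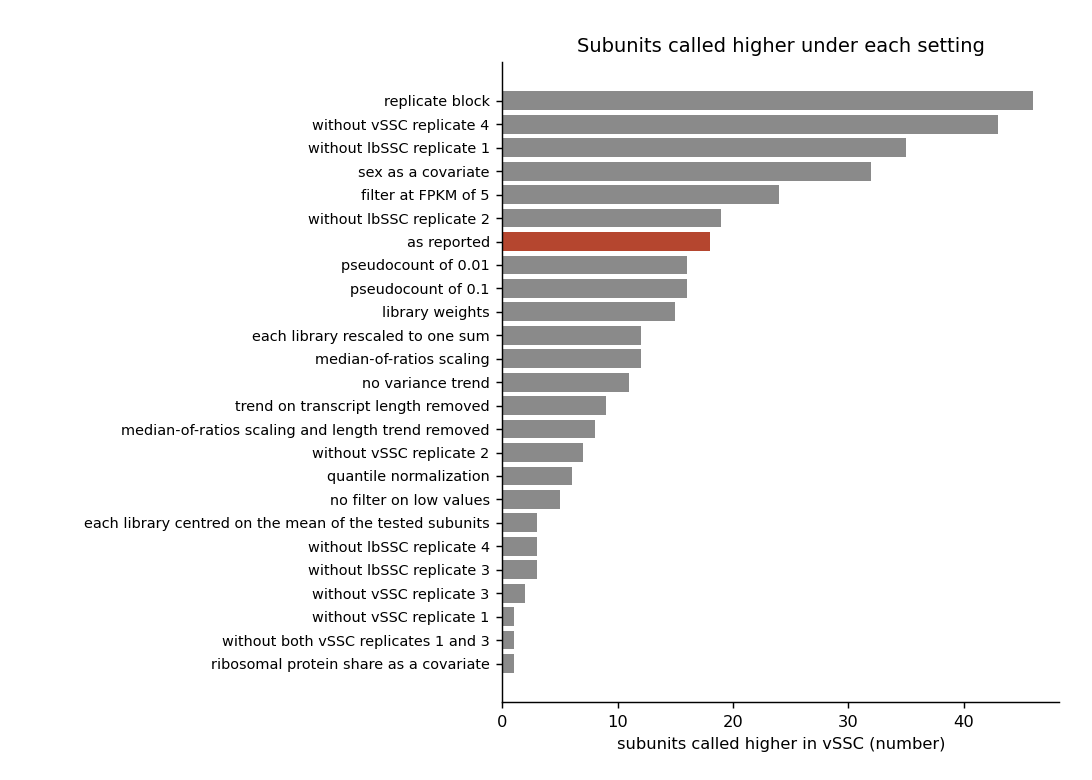
Number of the tested subunits called higher in vSSC under each setting, with the reported setting, at 18, in red. The count runs from 1 to 46.

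The sex difference of most subunit transcripts was above 0 for male minus female, and no single gene passed the test. In 76 of 79 subunits the male libraries were higher with site as a covariate, against 64.8% of all genes. The median male minus female difference was 0.22, against 0.07, and 0.16 with median-of-ratios scaling. The subunits moved together across libraries, so these 76 are not independent results. In summed FPKM female vSSC replicate 3 (15058) lay above male vSSC replicate 2 (13341), while in lbSSC the male libraries lay above the female ones. None was called by limma, against 0.0466% of all genes, while 16 had an unadjusted p under 0.05. The smallest adjusted p was 0.487, for Cox5a (0.38) and Cox7a2 (0.35). The site difference was not shown to differ between the sexes, since the interaction called 0 subunits, against 0.0% of all genes, with 1 at an unadjusted limma p under 0.05 and a smallest adjusted p of 0.981.

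Other genes of respiration outside the choice by symbol are counted here against the 14.3% of all genes called higher and the 9.17% called lower. These shares do not allow for transcript length. Among genes outside the 83, the share called higher was 27.4% from 600 to 1000 bases and 20.8% from 1000 to 2000. Of 7 further subunits 3 were called higher, the electron carrier Cycs (cytochrome c) at 0.72 ± 0.16, the carrier protein Ndufab1 at 0.61 ± 0.16 and Usmg5, a small protein of the ATP synthase, at 0.49 ± 0.15, and the median was 0.28. Cyc1, the cytochrome c1 of complex III, was not called (0.26 ± 0.13). Of 47 tested assembly factors, which build the complexes without staying in them, 14 (29.8%) were called higher and none lower, with a median of 0.37. They were led by Cox18, which inserts a complex IV subunit into the membrane (14.2 ± 1.86 and 7.09 ± 1.24 FPKM, 0.91 ± 0.15, adjusted p = 0.00152), Coa7 (1.21 ± 0.30, adjusted p = 0.0142) and Ndufaf2 (0.75 ± 0.19, adjusted p = 0.0149).

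The citric acid cycle, which feeds the chain with NADH and succinate, was counted together with pyruvate dehydrogenase. This set had 3 of 16 genes higher (18.8%, near the 14.3% of all genes) and a median of 0.28. The 3 were Pdhb, of pyruvate dehydrogenase, and Idh3a and Idh3g, of the cycle. Of 17 genes of mitochondrial membrane transport, membrane structure and supercomplexes 5 (29.4%) were higher, with a median of 0.34. They were led by Higd1a, which binds complex IV (0.65 ± 0.14, adjusted p = 0.00929). Next came the citrate carrier Slc25a1 (0.42 ± 0.11, adjusted p = 0.0227) and the prohibitin Phb2 (0.52 ± 0.14, adjusted p = 0.0245). Mitochondrial ribosomal proteins, which translate the subunits encoded in mitochondrial DNA, had 22 of 77 (28.6%) higher and a median of 0.39, and cytosolic ribosomal proteins 33 of 82 (40.2%) higher, against 14.3% of all genes, 1 lower and a median of 0.39. The exception, Rpl39l, a testis form like Cox8c, had 1.68 ± 1.02 FPKM in vSSC and 34.8 ± 8.05 in lbSSC. The listed mitochondrial and cytosolic ribosomal proteins had median lengths of 1223 and 757.5 bases. With each library's trend on length removed, 13 mitochondrial and 17 cytosolic ones were called higher, against 13.2% of all genes. The listed regulators of mitochondrial genes are longer, with a median of 3493 bases. Genes outside the 83 of 2000 to 4000 bases had a median difference of 0.06, with 13.4% called higher. Of 13 tested regulators none was called in either direction, with a smallest adjusted p of 0.0920 and 1 at an unadjusted limma p under 0.05, and the median was 0.11. Among these Nrf1 had 7.15 ± 0.346 and 7.14 ± 1.50 FPKM, Tfam, which packs mitochondrial DNA, 16.5 ± 2.23 and 15.4 ± 3.13, and Hif1a 90.0 ± 4.97 and 94.5 ± 1.48. Ppargc1a, the coactivator PGC-1alpha, had 0 FPKM in each vSSC library and 0.0621, 0.664, 0.731 and 0.105 in lbSSC, and Ppargc1b did not exceed 0.107.

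Markers of other cells moved with the site too. Neutrophil genes summed to between 285 and 439 FPKM in vSSC and between 26.4 and 118 in lbSSC, with 5 of 6 tested higher in vSSC, and of 4 macrophage genes Lyz2 alone was tested and called higher, while Csf1r and Adgre1 stayed under 0.21 FPKM. Erythroid genes summed to 4504 ± 706 FPKM in vSSC and 6410 ± 2401 in lbSSC, with 1 of 6 lower. Skeletal muscle genes summed to 23.5 ± 5.66 and 5.57 ± 0.753, with Tnnt3 called higher, Myh3 at 0 in every library and Ckm at 0 in 7. Endothelial genes summed to 0.280 FPKM or less, and of the brown fat genes Ucp1 was at 0 in every library. Of 5 osteoblast genes, Col1a1 (723 ± 71.5 and 4093 ± 836 FPKM) and Bglap (69.9 ± 31.5 and 207 ± 105) were lower in vSSC, Sp7 was higher (44.8 ± 3.28 and 29.1 ± 4.23), and Runx2 and Ibsp were not called. The part of these cells in the subunit differences was not tested.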

How the data were processed

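The authors deposited FPKM for protein-coding genes. The submitters' processing notes name bcl2fastq 2.19, Cufflinks 2.1.1, STAR 2.5.2 and build GRCm38, and per the labels' protocols libraries came from SMART-Seq v4 and Nextera XT kits, which do not mark the strand. FPKM divides by transcript length and library total, so an abundant set that rises lowers all others. Read totals were not used here, so depth is unknown and precision rests on the replicates.

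From these values log2(FPKM + 1) was computed for 10729 genes, those reaching an FPKM of 1 in 4 or more of 8 libraries. R 4.3.3 and limma 3.58.1 (variance trend, no covariate) gave vSSC minus lbSSC with Benjamini-Hochberg adjustment over all of them, called under 0.05. Sex was tested in a model with site, and their interaction in a model with both. Simulated data for the site comparison held 10729 genes, of which 200 were changed. A change of 0.5 (log2) was recovered in 20% of changed genes, a change of 1 in 70% and changes of 2 and 3 in 100%. Of the calls 3.97% were wrong. The simulated noise was drawn for each gene independently. In the real data 2518 genes were called and whole sets of genes moved together across libraries, so these rates need not hold there.

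The genes, the companion and marker lists and the naming rule were chosen with earlier results of these data known. The rule describes, per complex, up to 4 called genes with the smallest p higher and 2 lower, the gene with the highest level, all Sdh genes and the isoform pairs, and up to 3 called genes per companion list. Some listed symbols were not analysed here, and 1 subunit counted in the totals is not reported here by itself. Copies were searched with blastn 2.17.0 among GENCODE M21 transcripts. Alternatives were pseudocounts of 0.1 and 0.01, no filter or one at an FPKM of 5, median-of-ratios, quantile and one-sum scaling, removal of a loess trend on length (span 0.5), no variance trend, library weights, sex or the ribosomal protein share as a covariate, a replicate block, and each library left out. Centring on the subunits, and length removal after median-of-ratios scaling, were added after the data were seen.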

Additional observations from a re-analysis of the deposited data

Results flagged for a closer look

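Of 70 groups of 4 values checked, 4 held a library far from the other 3, by Dixon's test with a critical value of 0.829, where chance gives about 1 in 20. Ndufa4 stood at 272 FPKM in lbSSC replicate 1, against 176 to 186 in the other lbSSC libraries. Cox8c stood at 0.599 FPKM in vSSC replicate 4 and was listed at 0 in the other 3. Cox8b stood at 1.28 FPKM in vSSC replicate 3 and at 0.266 in lbSSC replicate 1, and was listed at 0 in all others. In the last 3 groups a single value above 0 is enough for this mark, so they say no more than that 1 library listed the gene.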

How the results depend on the processing

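The count of 18 subunits higher in vSSC became 5 with no filter, 6 with quantile normalization, 9 with the length trend removed, 8 with that removal after median-of-ratios scaling, 11 with no variance trend, 32 with sex as a covariate, 1 with the ribosomal protein share as covariate, 3 after centring on the subunits and 1 without both vSSC replicates 1 and 3. Leaving out 1 library at a time gave 1 to 43. No share of all genes is given here for the fits with 1 library left out. The same holds for no filter, no variance trend, and length removal after median-of-ratios scaling. The cause was not tested. The count of 1 lower became 0 with the filter at an FPKM of 5, which drops Cox8c from the test, and 2, with Cox4i2, under quantile normalization, one sum per library, both fits with the length trend removed and centring; it was 1 without each library. With the ribosomal share as covariate the median difference was -0.057 over the subunits, -0.096 for complex I, -0.054 for complex II, -0.10 for complex III and -0.057 for complex V, but 0.017 for complex IV, and Cox7b stood at -0.019 (adjusted p = 0.955). Centring gave -0.044 for complex II. Over 27 named genes and all alternatives, 500 of 647 comparisons kept direction and side of the threshold, 121 lost the call, 25 gained one and 1 reversed. With the replicate number as a block 46 subunits were higher, against 18.8% of all genes, and 1 lower. The numbers share no stated source: deviations of same-numbered libraries correlated at 0.26, -0.088, -0.064 and 0.44, and not every library correlated best with its own number. Depth is unknown, which limits genes of low FPKM such as Cox8c most.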
